A study of Homo sapiens with 2 samples.

Results

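H3K27ac HiChIP records contacts between regions of acetylated chromatin. DNA is ligated in fixed nuclei and fragments that carry acetylated histone H3 lysine 27, a mark of active promoters and enhancers, are precipitated, so that each read pair joins 2 places that lay close together. It was applied to KYSE180, an established line of esophageal squamous cell carcinoma (ESCC) cells, in 2 libraries of 1 condition, a transfection with a non-targeting siRNA. The deposited list holds 31950 loops for both libraries, each between 2 bins of 2 kb (here called anchors) on hg19, with 1 count read as the contacts of the loop and 1 read as the coverage of its first bin, the one at the lower position. By the study's methods, the loops were called as associated with p63, a squamous transcription factor, and kept if both ends carried H3K27ac. Contacts between acetylated bins without p63 may therefore be missing from the list. The counts of the list have no replicate spread, so the 95% intervals given below (Wilson for shares, exact Poisson for counts and ratios of counts) hold at most counting error. Where a contact is counted at both of its ends, they are too narrow even for that. The reads carry no molecular identifiers as far as the sources say, so counts may include copies of 1 molecule.

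The loops described here lie on the long arm of chromosome 11, mostly in bands 11q13.1 to 11q13.2. Their 2 bins both start between 65.3 and 68.9 Mb, and 1018 of the 31950 loops met this rule, with 1075 contacts between 460 anchors. The interval was chosen by its number of loops and its coverage in this list, so its density is a description and was not tested. It made up 3.19% of the loops and 1.32% of the 34902 anchors of the list. At the edges, the first anchor inside (65308001 to 65310000) had 2 loops and the last one outside (65294001 to 65296000) had 1. At the upper edge the last anchor inside (68898001 to 68900000) had 2 loops in the interval. The next one (68900001 to 68902000) had 1 loop, which ran to higher positions, and is not a member.

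The proximal part of 11q13 is among the gene-rich stretches of the genome, where many promoters of housekeeping genes stand close to each other. Promoters and enhancers that carry H3K27ac can meet in space over intervening genes, and in gene-dense chromatin loops between promoters are common. FOSL1 encodes FRA1, a subunit of the AP-1 transcription factor that acts in migration and invasion of squamous carcinoma cells. Further toward the telomere, in 11q13.3, lies CCND1, the cyclin D1 gene that is often amplified in ESCC. In the RefSeq gene order, 90 protein-coding genes lie between FOSL1 and CCND1. They include KDM2A, a histone demethylase, GRK2, a kinase that acts on G protein-coupled receptors, RPS6KB2, an S6 kinase, and RAD9A, a DNA damage checkpoint protein. Others are GSTP1, a glutathione transferase, LRP5, a Wnt co-receptor, PC, pyruvate carboxylase, and CPT1A, the enzyme of mitochondrial fatty acid import. Apart from FOSL1, no gene was laid on an anchor here, because the gene models and the genome sequence used here are on another build than the list.

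Loops were spread unevenly along the interval. In windows of 100 kb, the number of loops by midpoint ranged from 4 to 79 with a median of 21. It rose from 10 in the lowest window to 79 between 67.0 and 67.1 Mb. The windows just above, from 67.1 to 67.2 and from 67.2 to 67.3 Mb, held 72 loops each, and those from 66.9 to 67.0 and from 66.8 to 66.9 Mb held 62 and 53. The window from 66.6 to 66.7 Mb also held 53. The first 5 of these windows took 338 loops, or 33.2% of all, in a run of 5 adjacent windows. The anchors were spread more evenly than the loops. Their number per window had a median of 13 and ranged from 0 to 25, and the highest again lay between 67.0 and 67.1 Mb. The window from 66.9 to 67.0 Mb had 62 loops over only 9 anchors, while that from 65.3 to 65.4 Mb had 10 loops over 15 anchors. Loops are placed by midpoint, so a window can be crowded by loops whose ends lie in its neighbours.

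**Figure D1:**
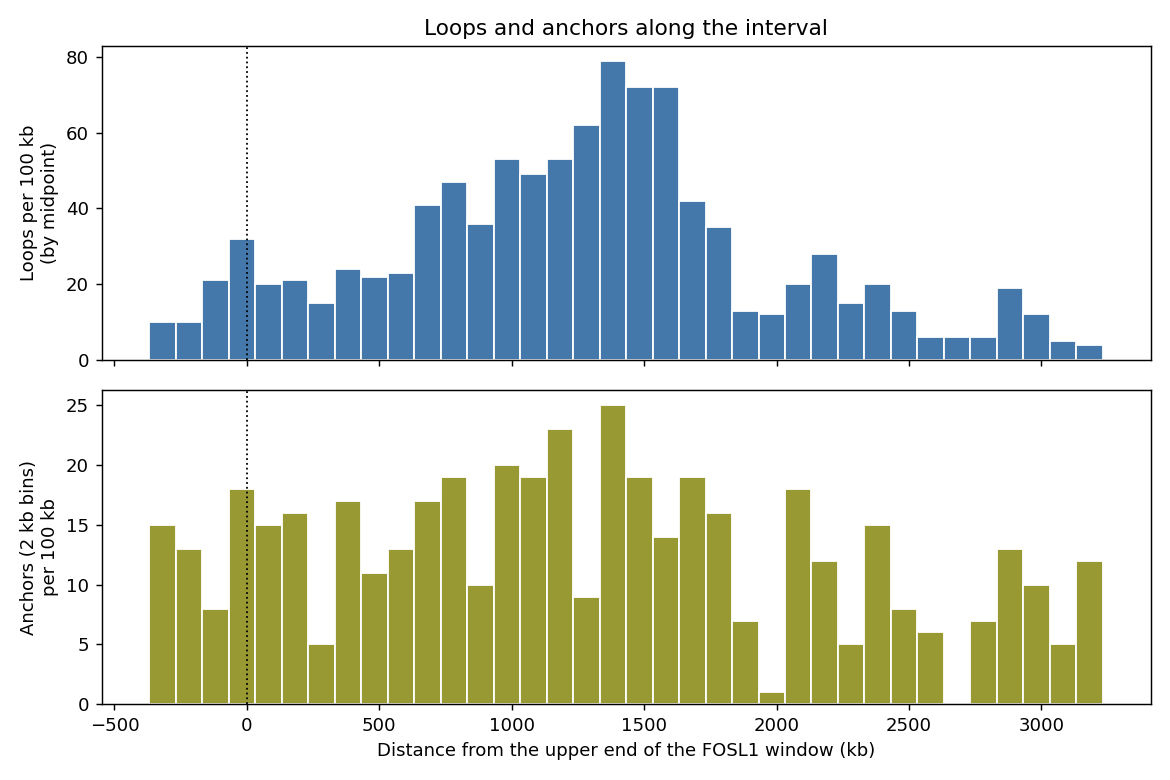
Loops by midpoint (top) and anchors (bottom) in windows of 100 kb, with distance from the upper end of the FOSL1 window in kb on the horizontal axis (dotted line at 0). Loops climb to 79 in the densest window and fall to 4 in the last, while the anchors, between 0 and 25 per window, do not follow the loops closely.

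Divided into 3 segments of equal length (1.2 Mb), the middle segment held more loops than either of the others. With both ends in it, it had 447 loops (43.9%) between 66.5 and 67.7 Mb, against 230 in the lower and 132 in the upper segment. The middle segment had 182 anchors, close to the 167 of the lower one, but 76 of them (41.8%) had 6 or more loops, against 29 (17.4%) and 15 (13.5%) in the lower and upper segments. Loops that joined different segments were fewer. Lower and middle were joined by 128 loops, middle and upper by 64, and lower and upper by 17. All 190 runs of touching anchors (stretches) of the interval nevertheless belonged to 1 connected network. The same was true of each of 4 other regions used for comparison, which were the next 1.5 Mb of chromosome 11 and 3 loop-dense regions of 5 Mb on chromosomes 19, 9 and 17, so a single network was not particular to this interval.

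Stretches without anchors divided the upper part. The longest ran for 172 kb, from 68246001 to 68418000, the next for 120 kb, from 67602001 to 67722000, and the others in order of size were of 64 kb, 1 of them from 65960001 to 66024000 in the lower segment. Long loops did cross them. The 172 kb gap was spanned by 43 loops and the 120 kb gap by 81, but only 1 and 2 of these, respectively, were shorter than 200 kb. The next counts take all loops of the chromosome shorter than 200 kb, also those with an end outside the interval. They passed over a point of the interval 9 times in the median (361 points at steps of 10 kb) and 49 times at 67.06 Mb. The medians were 10 in the lower, 18.5 in the middle and 3 in the upper segment. At most 2 such loops passed over the points from 67.56 to 67.72 Mb and from 68.25 to 68.51 Mb. No point had 0, so short loops thinned at these places without a full break.

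**Figure D2:**
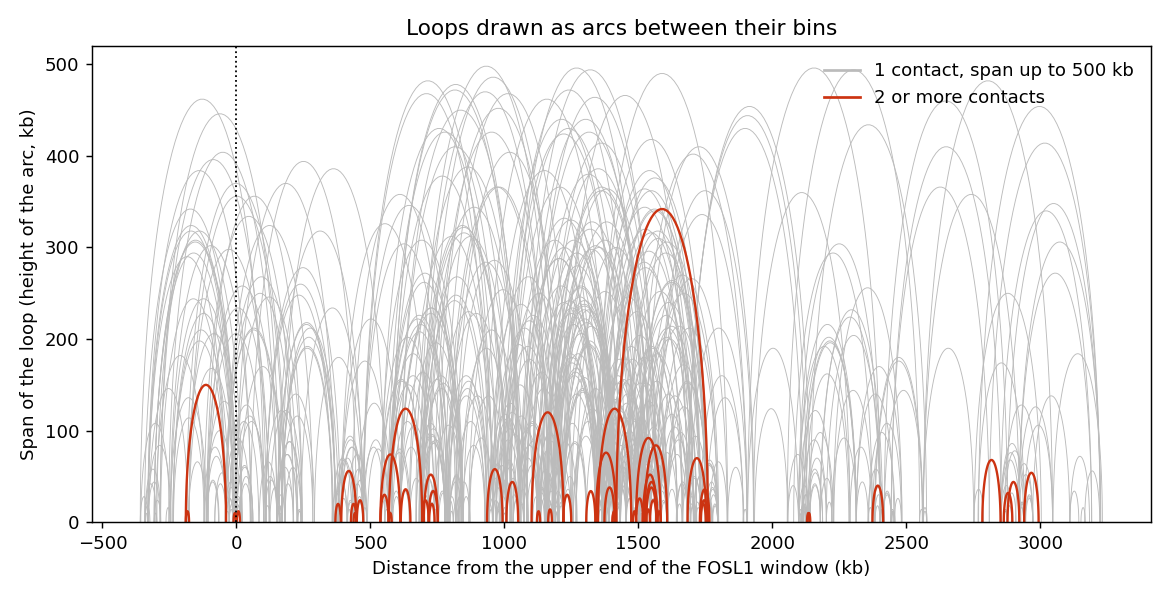
Loops as arcs between their bins, with distance from the upper end of the FOSL1 window on the horizontal axis and the span as the height of the arc, both in kb. Grey arcs are loops with 1 contact spanning up to 500 kb, and red arcs are the 53 loops with 2 or more contacts, 28 of which have both ends in the middle segment and which are mostly short.

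Anchors in the middle of the interval were among the most connected of the list, as the choice of the interval by its loops would give. Over loops to any place, 11 anchors of the whole list had 20 or more loops, and 6 of them lay in the interval. The highest value of the list, 27 loops, belonged to the anchor from 66886001 to 66888000, and the highest outside the interval was 23. Counting only loops within the interval, this anchor and the one from 67080001 to 67082000 led with 24 loops each. Of the loops of the anchor at 66886001, 15 went to higher and 9 to lower positions, whereas the anchor at 67080001 had 18 partners below it and 6 above. The anchor from 67032001 to 67034000 had 21 loops and leaned the other way, with 16 partners at higher positions and 5 at lower ones. The top anchors thus differed in the side on which most of their partners lay, a difference that was not tested.

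The other top anchors had between 16 and 20 loops. Those from 67158001 to 67160000 and from 67196001 to 67198000 had 20 loops and 24 contacts each, and that from 67056001 to 67058000 had 19 loops with 1 contact each. The anchors from 67170001 to 67172000 and from 66360001 to 66362000 had 17 loops each, and those from 67006001 to 67008000 and from 67210001 to 67212000 had 16 each. All but the anchor at 66360001 lay within 326 kb, in the middle segment. Of the 45 pairs of these 10 anchors, 16 (35.6%) were joined, 15 of them by 1 contact. Over all pairs of anchors of the interval the share was 11.6% at 10 to 50 kb and 3.42% at 50 to 200 kb. From 200 kb to 1 Mb it was 0.784%. A higher share among the 10 follows from picking them by their number of loops. Together they had an end in 178 loops, or 17.5% of the interval. In the interval as a whole the loops were shared out differently, as 83 of the 460 anchors (18.0%) had 1 loop, the median was 3, and 120 (26.1%, interval 22.3 to 30.3%) had 6 or more.

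Highly connected anchors were also highly covered. The coverage of the 10 top anchors ran from 65 to 147, and 9 of them were among the 20 highest coverages of the interval. Over the 389 anchors with a listed coverage, the Spearman correlation of loops with coverage was 0.63, a description across bins that share libraries and neighbours. Coverage is listed only for bins at the lower end of some loop. It was listed for 119 of the 120 anchors with 6 or more loops, but for 48 of the 83 with 1 loop. Among these, the median coverage was 41 for anchors with 6 or more loops and 15 for those with 1 loop. Single anchors departed from this relation. An anchor with 6 or more loops had a coverage of only 14. The anchor at 68816001 had 1 loop in the interval and a coverage of 76, but 6 loops in the list as a whole, since it stands near the edge and its other loops left the interval. The part of coverage in the number of loops was not tested.

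Few loops rested on more than 1 contact. In the interval 965 loops had 1 contact, 50 had 2, 2 had 3 and 1 had 4. A count of 1 has an interval of 0.0253 to 5.57 contacts, so single loops are not to be ranked against each other. The loop with 4 contacts joined the bins 67070001 to 67072000 and 67080001 to 67082000, the latter being a top anchor. Of the loops with 3 contacts, one joined 67158001 to 67160000 with 67184001 to 67186000, 26 kb apart, and the other joined 67196001 to 67198000 with 67210001 to 67212000, 14 kb apart. All 3 thus lay within the dense middle segment and touched at least 1 top anchor. The 53 loops with 2 or more contacts had a median span of 32 kb, and 37 of them were shorter than 50 kb. The longest spanned 342 kb, from 67084001 to 67428000. Its lower bin lay in the same stretch as the top anchor at 67080001 and had a coverage of 158, the highest of the interval. They linked 87 anchors in 35 separate groups of at most 7 anchors, so repeated contacts did not hold the interval together as 1 network. The anchors at 66114001, 67158001 and 67196001 had 3 repeated loops each, the most of any.

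FOSL1 lies in the lower part of the interval, in the 8 kb from 65660001 to 65668000, and is transcribed from the minus strand, so its 5′ end is at the upper end of this window. These limits are rounded, and the 5′ end may be off by 1 bin. The window had 14 loops with 15 contacts inside the interval, from 2 of its 4 bins. The bin at the 5′ end, 65666001 to 65668000, had 10 of them, and the bin at the 3′ end, 65660001 to 65662000, had 4. The bins between them had no listed loop, which gives no upper limit on their contacts, because the list holds only loops that passed the caller. By its number of loops the bin at the 5′ end ranked 33rd of 460 anchors, a rank it shared with 14 others, and its coverage of 72 ranked 22nd. The coverage of the 3′ bin was 21.

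The partners of the FOSL1 5′ bin lay equally on both sides. Toward lower positions, that is downstream of the gene, it was joined to 65656001 to 65658000 by 2 contacts, the only repeated loop of the window, over 10 kb. It was joined by 1 contact each to 65628001 (38 kb), 65422001 (244 kb), 65360001 (306 kb) and 65324001 (342 kb). Toward higher positions, upstream of the gene, its partners began at 65684001 (18 kb), 65728001 (62 kb), 65912001 (246 kb), 66036001 (370 kb) and 67774001 (2108 kb), with 1 contact each. The partner at 65628001 was itself a busy anchor, with 16 loops in the list and a coverage of 71, close to that of the FOSL1 bin. Beyond the interval the bin had 1 more loop, to 65122001 (544 kb). The 3′ bin was joined to 65640001 and 65680001, both 20 kb away, to 65688001 (28 kb) and to 65336001 (324 kb). The 2 bins of FOSL1 thus shared no partner bin. By runs of touching anchors they were less separate. The partners at 65684001 and 65688001 lay in the same run, and the one at 65656001 lay in the run of the 3′ bin itself.

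Of the 14 loops of the window, 6 were shorter than 50 kb and 7 were 200 kb or longer. The 5′ bin was joined to 4 of the 22 anchors that lay 10 to 100 kb from it, or 18.2% (interval 7.31 to 38.5%), which left most nearby anchors without a listed loop to it. Its 11 partners, the one outside the interval included, were joined to each other in 1 pair, 65122001 with 65728001. Within 60 kb of the window there were 19 loops between 18 anchors. Of these, 7 ended in the window and 4 passed over it. The count depended on the width of the window. With 1 bin more on each side there were 25 loops, because the bins at 65658001 and 65668001 had 6 loops each, 1 of them with each other. The bin at 65668001 lay directly upstream of the 5′ end. In the RefSeq order CCDC85B, FIBP and CTSW, a protease of lymphocytes, are the nearest genes on the lower side of FOSL1. C11orf68, DRAP1, a transcriptional corepressor, TSGA10IP and SART1, a splicing factor, follow on the higher side. None of the partner anchors was assigned to them.

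**Figure D3:**
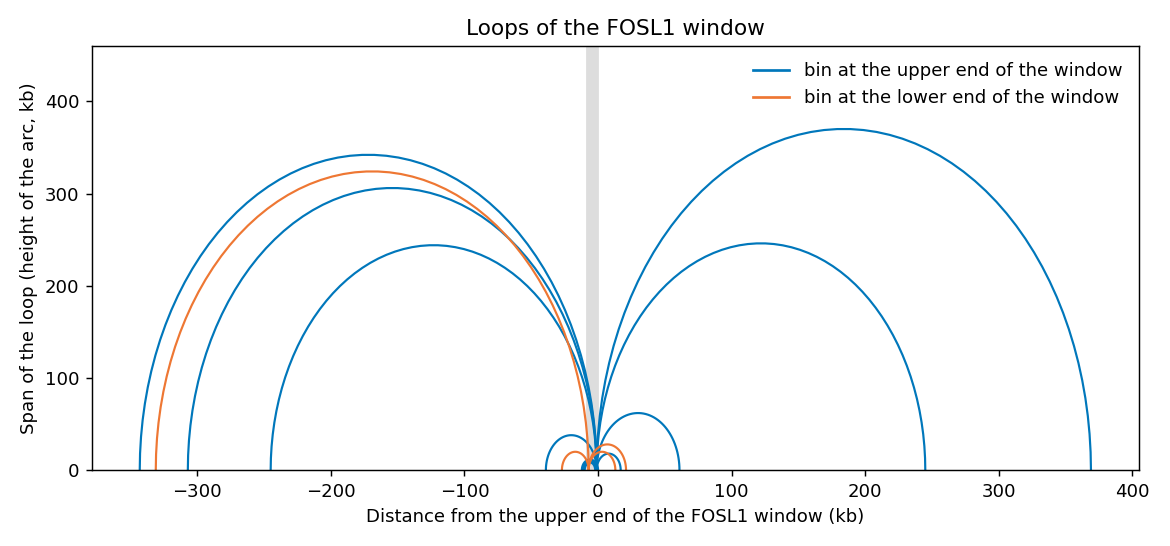
Loops of the FOSL1 window (grey band) to partners within 500 kb in the interval, with distance from the upper end of the window on the horizontal axis and the span as the height of the arc, both in kb. The bin at the upper end, near the 5′ end of FOSL1, reaches partners between 10 and 370 kb away on both sides, while its loop of 2108 kb is beyond the plot.

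The median span of loops was 126 kb (interquartile range 38.5 to 357.5 kb, longest 2810 kb) against 120 kb in the other 30932 loops, 154 kb in the rest of chromosome 11 and 94 to 130 kb in the 4 comparison regions. The 3 longest joined 65776001 with 68586001 (2810 kb), 65658001 with 68454001 (2796 kb) and 65310001 with 67868001 (2558 kb), each by 1 contact. The second of them started in the bin next to the FOSL1 window. Because both ends must lie in 3.6 Mb, longer loops could not count here, and with loops of at least 1 end inside the median was 214 kb. Loops often passed over other acetylated stretches. Of the 1018 loops, 86.1% (interval 83.9 to 88.1%) passed over at least 1 stretch of anchors, with a median of 7, and 141 joined a stretch to the next one. Among the 53 loops with 2 or more contacts, which were shorter, the share was 45.3%. Of all loops in the rest of the list 78.9% (78.4 to 79.3%) passed over a stretch, and in the 4 comparison regions between 83.3 and 85.1%, with intervals that overlap that of the interval.

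Anchors often touched. Of the 190 stretches only 34 (17.9%) were a single bin, and 17 were 8 kb or longer. The longest ran for 16 kb from 67770001 to 67786000 and had 27 loops to 16 other stretches. It holds the farthest partner of FOSL1, at 67774001, and lies in the first 100 kb above the 120 kb gap. A stretch of 12 kb from 67790001 to 67802000 followed directly, and the pair was joined by 6 loops of 1 contact each. The stretch from 67076001 to 67088000, also 12 kb long, holds the top anchor at 67080001 and had 63 loops to 37 other stretches, the most of any, against a median of 7. With 6 loops and 7 contacts, its strongest tie was to the stretch from 67006001 to 67012000. Stretches of 12 kb also lay from 66822001 to 66834000 and from 67416001 to 67428000. In all, 821 pairs of stretches were joined and 142 of them (17.3%) by 2 or more loops, against 8.79% in the rest of the list, 16.0% in the next 1.5 Mb and 12.5%, 15.5% and 13.09% in the dense regions on chromosomes 19, 9 and 17. Wide stretches offer more pairs of bins, and their part in this share was not tested.

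The pairs of anchors in the same class of distance were counted, and the shares that were joined were set side by side. Of the 2661 pairs 10 to 50 kb apart, 308 or 11.6% (interval 10.4 to 12.8%) were joined, against 11.5% (11.3 to 11.8%) in the rest of the list. From 50 to 200 kb the shares were 3.42% (3.06 to 3.82%) and 3.96% (3.88 to 4.04%), and from 200 kb to 1 Mb 0.784% (0.705 to 0.872%) and 0.988% (0.967 to 1.01%). The intervals thus overlapped at 10 to 50 kb, and from 50 kb to 1 Mb the shares here lay below those of the rest of the list. This was shared by the rest of chromosome 11 and the dense regions, but only in part by the next 1.5 Mb. From 50 to 200 kb the rest of chromosome 11 had 3.42%, and the dense regions on chromosomes 19, 9 and 17 had 2.37%, 2.86% and 3.0%. From 200 kb to 1 Mb these had 0.880%, 0.514%, 0.613% and 0.801%. The next 1.5 Mb had 3.83% (3.07 to 4.75%) from 50 to 200 kb, which overlapped both. From 200 kb to 1 Mb it had 1.18% (0.940 to 1.48%). This lay above the share of the loops described here and overlapped that of the rest of the list. From 1 to 5 Mb the order turned, with 0.144% (0.115 to 0.181%) in the interval and 0.125% (0.121 to 0.129%) in the rest of the list, and the intervals overlapped. Pairs of the interval lie at most 3.6 Mb apart, whereas those of the rest of the list reach 5 Mb, so this class does not compare like distances. Within a class, the pairs of a shorter region also lean to the shorter distances. The anchors themselves stood closer together, as the choice of the interval would give. There were 128 anchors per Mb here, against 94.0 in the 1.5 Mb just above, 96.8 on chromosome 19 from 45 to 50 Mb, 86.4 in the 5 Mb of chromosome 9 from 130 Mb and 72.8 on chromosome 17 from 75 to 80 Mb. In these 4 regions 10.5%, 8.61%, 9.11% and 10.5% of the pairs 10 to 50 kb apart were joined. The interval of chromosome 19 (7.54 to 9.82%) lay below that of the loops described here, and the others overlapped it. A bin enters these counts only if it has a loop, so the shares say nothing of acetylated bins without one. The same rule raises the share more where anchors have few loops. In the rest of the list 59.8% of anchors had 1 loop, against 18.0% here. The shares therefore cannot show whether anchors of the interval were joined more readily than others.

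Loops with 2 or more contacts made up 5.21% (4.0 to 6.75%) in the interval and 3.29% (3.10 to 3.50%) in the rest of the list. The shares differed by span. From 10 to 50 kb the shares were 12.0% (8.84 to 16.1%) and 7.11% (6.61 to 7.64%), and from 50 to 200 kb 4.97% (3.03 to 8.03%) and 2.40% (2.10 to 2.73%). From 200 kb to 1 Mb the order was the other way, with 0.299% (0.0527 to 1.67%) and 1.22% (1.01 to 1.48%), and these intervals overlapped. The dense regions on chromosomes 9 and 17 had 10.9% each among short loops, with intervals overlapping that of the interval. Coverage differed along with the shares. First bins here had a median coverage of 27 (quartiles 18 and 39) against 12 (8 and 20) elsewhere. Among loops whose first bin had a coverage of 20 to 39, a range chosen after the values were seen, 3.92% (2.46 to 6.18%) in the interval and 4.08% (3.65 to 4.57%) in the rest of the list had 2 or more contacts. At the same coverage the short loops had 7.95% and 8.14%. Above this range the shares of short loops were 19.05% (11.2 to 30.4%) and 14.1% (11.9 to 16.6%) at a coverage of 40 to 79. At 80 or more they were 19.05% (9.98 to 33.3%) and 39.5% (33.8 to 45.5%). Below 20 the shares of short loops were 9.62% (4.18 to 20.6%) and 4.40% (3.92 to 4.94%), and over all spans 3.85% (1.88 to 7.73%) and 2.06% (1.87 to 2.26%). Over all spans they were 6.79% (4.34 to 10.5%) and 5.69% (4.90 to 6.60%) at 40 to 79, and 8.03% (4.54 to 13.8%) and 20.4% (17.6 to 23.4%) at 80 or more. The share was thus higher in the interval in 2 of the 4 coverage classes, with overlapping intervals, about equal in 1 and lower in the class of highest coverage. That class has no upper limit. The coverage of first bins reached 158 in the interval and 1609 in the rest of the list, so this class does not compare like coverage. The part of coverage in the share of repeated loops was not tested.

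**Figure D4:**
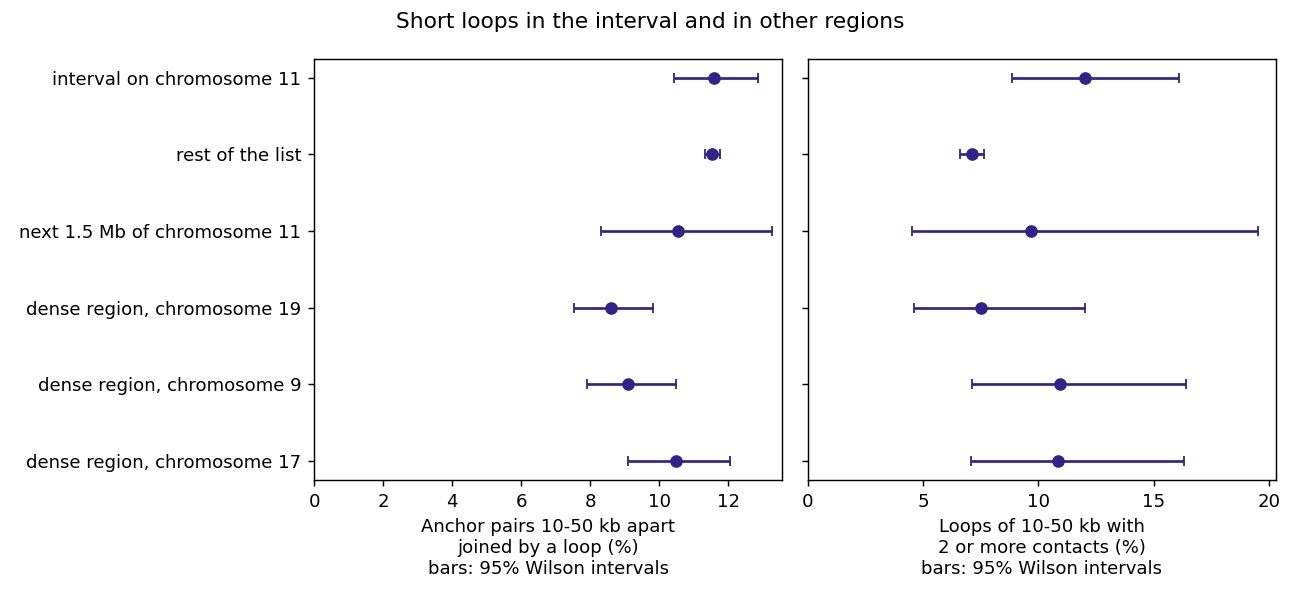
Share of anchor pairs 10 to 50 kb apart that were joined (left) and share of loops of 10 to 50 kb with 2 or more contacts (right), both in percent, for the interval, the rest of the list and the 4 comparison regions. Points are shares and bars 95% Wilson intervals. The interval lies beside the rest of the list on the left, at 11.6 and 11.5%, and above it on the right, at 12.0 and 7.11%.

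The contacts per coverage differed along the interval. The median coverage of first bins was 22 in the lower, 31 in the middle and 26 in the upper segment, and in the next 1.5 Mb it was 28. The contacts of covered anchors, counted to both sides and over all loops of the list, were 186 per 1000 counts of coverage (173 to 201) in the lower and 201 (189 to 212) in the middle segment. In the upper segment they were 139 (125 to 153), and in the next 1.5 Mb 146 (133 to 159). The upper segment thus had coverage like the rest of the interval but fewer listed contacts for it. A contact between 2 covered anchors enters the sum at both, so these Poisson intervals are too narrow and their overlap was not read. The anchors of the upper segment were also fewer, 111 against 167 and 182, and the part of this in the ratio was not tested. The rest of the list had 133 contacts per 1000 counts of coverage (132 to 134), and the dense regions on chromosomes 19 and 17 had 219 and 209, both above the interval as a whole at 182 (174 to 190). The dense region on chromosome 9 lay below it, at 162 (152 to 173). Every listed anchor has a contact whatever its coverage, so low coverage can raise this ratio. The median coverage of first bins was 12, 13 and 16 in the dense regions on chromosomes 19, 17 and 9, against 27 in the interval. The regions are therefore not to be ranked by this ratio. In windows of 300 kb the median coverage ran from 17 to 36, and it was highest from 67.1 to 67.4 Mb.

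**Figure D5:**
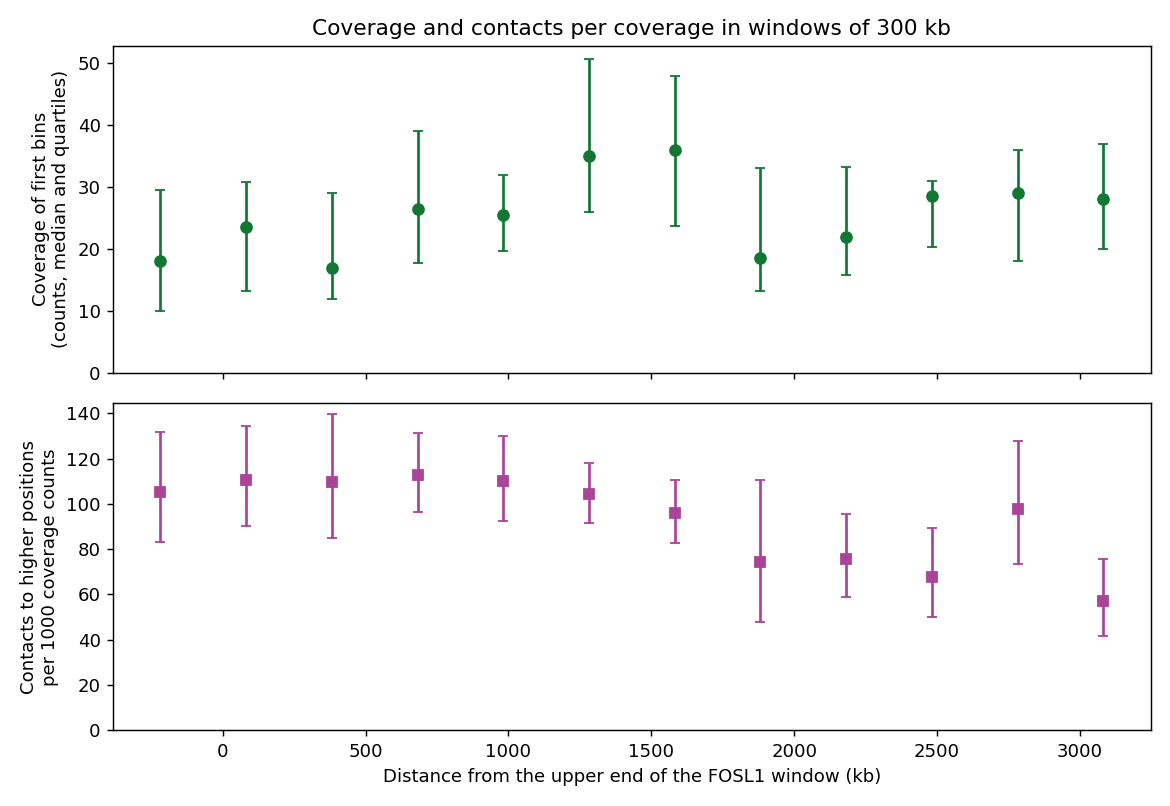
Coverage of first bins in counts (top, median with quartiles) and contacts to higher positions per 1000 counts of coverage (bottom, with 95% Poisson intervals) in windows of 300 kb, by distance in kb from the upper end of the FOSL1 window. Coverage peaks at medians of 35 and 36 in the middle, and the contacts per coverage are above 100 in the lowest 6 windows and below it in the others.

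Loops also left the interval. Of the 1302 loops with at least 1 end inside, 284 (21.8%, interval 19.7 to 24.1%) had their other end outside, 141 toward lower and 143 toward higher positions. All but 1 of them had 1 contact. Their median spans were 1330 and 1952 kb, respectively. On the lower side 86 of the 141 outer ends lay within 500 kb of the edge, and the 100 kb from 65.1 to 65.2 Mb alone took 39. The anchors from 65190001 to 65192000 and from 64902001 to 64904000 had 6 loops into the interval each, the most of any. Those of the first ended between 65.324 and 66.024 Mb, whereas those of the second reached up to 68.626 Mb. On the higher side 49 of the 143 outer ends lay within 500 kb, and the windows from 69.1 to 69.2 and from 69.4 to 69.5 Mb took 20 each. The anchors from 69454001 to 69456000 and from 69482001 to 69484000 had 5 loops each into the uppermost part of the interval, above 68.1 Mb. The 2 sides were thus left by similar numbers of loops, with ends closer to the edge on the lower side.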

How the data were processed

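H3K27ac HiChIP of KYSE180 cells was analysed, with 2 libraries of 1 condition that share 1 list. Per the labels and the study's methods, the authors processed the reads with HiC-Pro on hg19 and ran FitHiChIP in its Peak-To-All mode to find p63-associated active loops. They removed loops with an end lacking H3K27ac. Versions and thresholds are not given in the sources used here. The list was deposited with 2 columns of counts without normalization and without names. They were read as contacts and as coverage of the first bin: all 21636 first bins carried 1 value of the second, and no loop had more contacts than that value. The depth of the libraries is not shown.

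The loops were selected by position, and the members and the lists of genes and regions were chosen with earlier results of these data known. Positions are given 1-based as listed. The reference genome and annotation used here are GRCh38, so only the order of genes (RefSeq, GRCh38.p14) and the strand of FOSL1 (GENCODE 44) were taken from them. The FOSL1 window came with the rule that set the interval. No sequence is printed, since no genome on hg19 was used here. Because both libraries share 1 list, no test was run, and shares are set side by side with 95% intervals. Named were the 10 anchors with the most loops, loops with 3 or more contacts, the 5 densest windows of 100 kb, the longest gaps, stretches and loops, and the partners of FOSL1. Planned lists of other genes and motif counts were not run, as they need positions or sequence on hg19. The functions were tested on simulated data. Scripts ran in Python 3.11.15 with pandas 2.3.3, numpy 2.4.6 and scipy 1.17.1, and figures were drawn with matplotlib 3.10.9.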

Additional observations from a re-analysis of the deposited data

How the results depend on the processing

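Of 21 values recomputed for 10 results, 13 moved by more than a fixed limit, which was 1.5 times for counts and the 95% interval for shares, and 8 did not. Keeping loops with 2 or more contacts reduced the interval to 53 loops and 87 anchors. Their median span was 32 kb, with 45.3% of them passing over another stretch, and 1 loop at FOSL1. A minimum span of 20 kb gave a median span of 163 kb and 21.9% of anchors with 1 loop, and loops with at least 1 end in the interval had a median span of 214 kb, all by construction. With anchors up to 4 kb apart merged, 77.4% of loops passed over another stretch. The densest window held 144 loops at 200 kb and 25 distinct anchors at 100 kb. The widened FOSL1 window had 25 loops in place of 14. First bins with a coverage of 20 to 39, an alternative chosen after seeing the data, gave 3.92% of loops with 2 or more contacts in place of 5.21%. Single contacts limit every statement about 1 loop. No paired analysis was possible because the list pools the libraries of a single condition, and leaving out a replicate could not be done either.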
